A study of Homo sapiens with 8 samples.

Results

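The question addressed here is where knockdown of ALKBH5 changed gene expression differently in 2 human lines of acute myeloid leukaemia, NOMO1 and MOLM13. The measure is the knockdown effect in NOMO1 minus the knockdown effect in MOLM13, each effect being the mean log2(TPM + 1) of the 2 shALKBH5 libraries minus that of the 2 shNS libraries of the line. TPM is a transcript level scaled for gene length and library size. Of 26830 genes in the deposited table, 14302 reached 1 TPM in at least 2 of the 8 libraries, and all of these were tested. The 4 groups were NOMO1 shNS (replicates 1 and 3), NOMO1 shALKBH5 (replicates 2 and 3), MOLM13 shNS (replicates 1 and 3) and MOLM13 shALKBH5 (replicates 1 and 3). All cells had been infected with a lentivirus carrying a short hairpin RNA and selected with puromycin. shNS is the control hairpin, and 1 hairpin against ALKBH5, numbered #1 in the labels, was used in both lines, so that an effect of this hairpin on other transcripts cannot be told apart from an effect of losing ALKBH5. The series text and the sample protocols give different lengths of selection, and the protocols also name a virus against FTO and drug treatments that no sample label lists. Whether the 2 libraries of a group were grown as separate cultures is not stated, so the p-values reflect only how much these libraries vary, possibly for technical reasons. The knockdown columns of the table carry a code the labels do not explain and were matched to samples by line and replicate number.

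Both lines come from patients' leukaemias and carry a fusion of the MLL gene (KMT2A) with MLLT3, also called AF9. ALKBH5 removes the methyl group from N6-methyladenosine, m6A, the most common internal mark on messenger RNA. The mark is written by a complex of METTL3 and METTL14, removed by ALKBH5 and FTO, and read by proteins such as the YTHDF and IGF2BP families, which alter the decay and translation of marked transcripts. ALKBH5 is highly expressed in myeloid leukaemia and is required for the growth of leukaemic cells. The blood cell marker PTPRC stood between 64.5 and 204 TPM in the 8 libraries, the myeloid surface marker CD33 between 65.3 and 129 TPM and the myeloid factor SPI1 between 120 and 377 TPM. The megakaryocyte gene PF4, the B cell gene MS4A1 and the epithelial gene EPCAM were listed at 0 in all 8, and CD3E of T cells and COL1A1 of fibroblasts were at most at 0.16 and 0.78 TPM. HBB, a globin, was listed at 0 in 7 libraries and at 14.0 TPM in MOLM13 shALKBH5 replicate 3, and its part in the results was not tested.

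The targeted gene itself was lowered to a like degree. ALKBH5 (chr17:18183078-18209954, plus strand, GRCh38, GENCODE v29) stood at 70.4 and 71.8 TPM in NOMO1 shNS libraries and at 15.1 and 14.2 TPM after knockdown, and at 45.7 and 45.8 TPM in MOLM13 shNS libraries and at 9.45 and 7.35 TPM after knockdown. Every shALKBH5 library lay below every shNS library. The log2 change was -2.21 ± 0.13 (SE, n = 2 per group) in NOMO1 and -2.32 ± 0.13 in MOLM13. Here and below, limma's SE rests on 1 variance per gene shared by all 4 groups, so it is equal for both lines. It can understate the spread of the MOLM13 shALKBH5 libraries, which differed most from each other, and overstate that of the other groups. Their difference was 0.12 ± 0.18 (95% interval -0.32 to 0.55, limma adjusted p = 0.64), and with libraries rescaled by the median-of-ratios method it was -0.33 ± 0.09 (adjusted p = 0.037), a lower value in NOMO1.

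Many of the counts below depend on the scale. In TPM the median of all 14302 differences was 0.42, the median knockdown effect was 0.16 in NOMO1 and -0.18 in MOLM13, and after median-of-ratios scaling the median difference was -0.01. The factors by which that method divides the libraries were 1.13 and 1.14 in NOMO1 shNS libraries, 1.30 and 1.34 after knockdown, 0.919 in both MOLM13 controls, and 0.855 and 0.656 in MOLM13 shALKBH5 replicates 1 and 3. In TPM, 4946 genes passed limma's test at an adjusted p of 0.05 (34.6% of genes tested), 4245 higher in NOMO1 (29.7%) and 701 lower (4.9%). After median-of-ratios scaling the number was 5103 (35.7%), with 2653 higher (18.5%) and 2450 lower (17.1%). The genes that passed in the same direction under both scalings numbered 3345 (23.4%), of which 2648 were higher in NOMO1 (18.5%) and 697 lower (4.87%). These 3345 genes are called different below, "higher" and "lower" refer to the knockdown effect in NOMO1 relative to that in MOLM13, and fold values are log2 differences in TPM unless the scaling is named. The libraries' own differences from their controls did not overlap between the lines for any of the 3345 genes, and this held for 9363 of all genes tested (65.5%).

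A higher effect in NOMO1 had several sources. Of the 2648 higher genes, 755 passed the threshold for a rise in NOMO1 alone, 711 for a fall in MOLM13 alone, and 313 rose in NOMO1 and fell in MOLM13. Another 167 fell in both lines by less in NOMO1, 50 rose in both by more, 28 passed in neither line and 624 had line calls that changed with the scaling. Of the 697 lower genes, 227 fell in NOMO1 alone, 214 rose in MOLM13 alone, 47 fell in NOMO1 and rose in MOLM13, 30 fell in both, 11 rose in both, 4 passed in neither and 164 had line calls that changed with the scaling. Among the higher genes 160 were under 1 TPM in both NOMO1 groups and 259 under 1 TPM in both MOLM13 groups, and for the lower genes these counts were 74 and 129. For such genes the difference is in effect the change in the other line. Of all genes tested, 2978 changed in both lines in TPM, 2387 in the same direction and 591 in opposite directions, and with median-of-ratios scaling these were 4347, 3671 and 676.

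**Figure D1:**
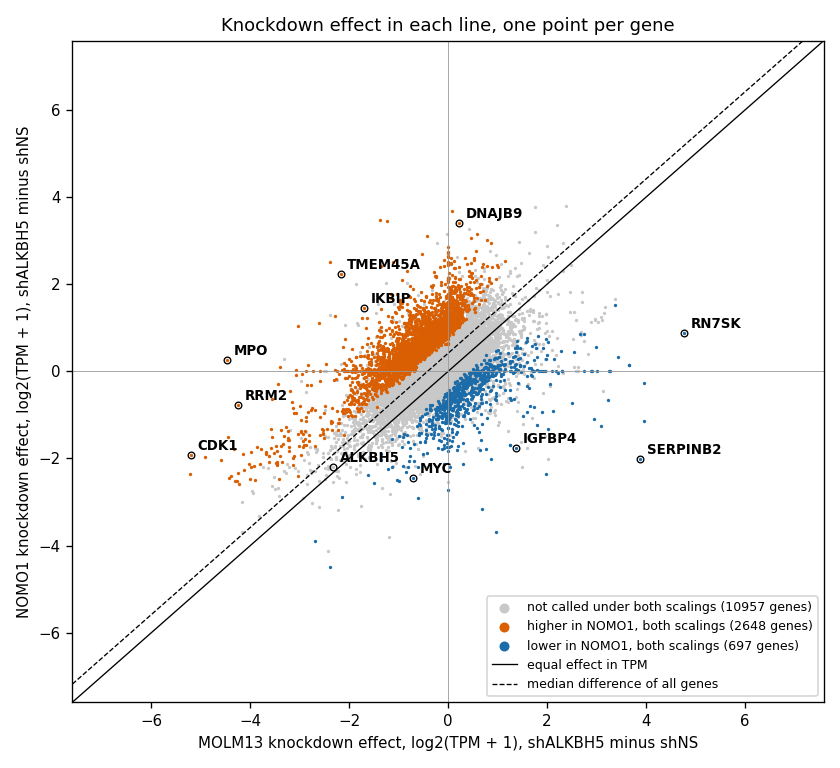
The knockdown effect in NOMO1 (vertical) against that in MOLM13 (horizontal), each as a difference in mean log2(TPM + 1), with 1 point per gene tested. The 2648 genes higher in NOMO1 under both scalings lie above the line of equal effect and the 697 lower ones below it; ALKBH5 lies near that line, and the dashed line is shifted by the median difference of 0.42, and RNA5-8S5 (11.32 in MOLM13) lies beyond the right edge.

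Genes that moved in opposite directions gave the plainest contrast between the lines. TMEM45A, a transmembrane protein gene (chr3:100492619-100577444, plus strand), stood at 2.09 and 2.65 TPM in NOMO1 shNS libraries and rose to 13.5 and 16.2 TPM. In MOLM13 it fell from 13.3 and 11.9 TPM to 3.16 and 1.18 TPM. The order of the lines was thus exchanged by the knockdown, with a difference of 4.41 ± 0.42 (limma adjusted p = 0.0023).

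IKBIP, which encodes a partner of the IKK kinase, went from 35.2 and 30.7 to 90.6 and 92.9 TPM in NOMO1 and from 33.7 and 33.8 to 13 and 7.23 TPM in MOLM13. The controls of the lines overlapped and the knockdown libraries did not, and the difference was 3.15 ± 0.34 (limma adjusted p = 0.0029). CBLB, a ubiquitin ligase that dampens immune receptor signalling, also moved in opposite directions, from 5.58 and 5.17 to 19.1 and 19.7 TPM in NOMO1 and from 6.93 and 7.09 to 3.31 and 1.98 TPM in MOLM13. MFAP4, an extracellular matrix gene, rose by 1.03 in NOMO1 and fell by 3.04 in MOLM13, to a difference of 4.07 ± 0.16 (limma adjusted p = 0.0012). The homeobox gene HOXC4 (2.86), the retinol dehydrogenase gene DHRS9 (2.80), the actin-binding MTSS1L (2.96) and LOC100289473 (2.49) also rose in NOMO1 and fell in MOLM13.

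In the other direction, SERPINB2, the plasminogen activator inhibitor PAI-2, fell in NOMO1 from 25.9 and 30.6 to 5.88 and 6.54 TPM and rose in MOLM13 from 0.83 and 0.76 to 16 and 40.1 TPM. The MOLM13 knockdown libraries thus lay to either side of the NOMO1 controls. The difference was -5.90 ± 0.53 (limma adjusted p = 0.0022).

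IGFBP4, a secreted binding protein of insulin-like growth factors, fell from 13.9 and 13.7 to 3.05 and 3.74 TPM in NOMO1 and rose from 6.55 and 6.39 to 16.8 and 20 TPM in MOLM13 (difference -3.13 ± 0.18, limma adjusted p = 0.0014). No knockdown library of 1 line overlapped those of the other. PRR7, which encodes a membrane adaptor, had a difference of -1.86 and ATP2A1-AS1, an antisense transcript, one of -2.56. CCL2, the monocyte chemokine, fell in NOMO1 from 45.9 and 47.7 to 2.51 and 2.97 TPM, while MOLM13 held at most 3.27 TPM (difference -4.65 ± 0.75, limma adjusted p = 0.0076). EEF1E1, a scaffold of the aminoacyl-tRNA synthetase complex, went from 13.4 and 10.7 to 1.1 and 0 TPM in NOMO1 and from 11.6 and 8.1 to 18.8 and 13.8 TPM in MOLM13 (-3.84).

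Several of the largest differences belonged to genes that 1 line hardly expressed. SELM, a selenoprotein gene, rose in NOMO1 from 3.02 and 3.07 to 57.4 and 45.6 TPM and was at most at 0.13 TPM in MOLM13. VAT1L was at most at 0.17 TPM in NOMO1 and fell in MOLM13 from 101 and 101 to 10 and 7.61 TPM. Their differences were 3.60 and 3.48. Small RNA genes inside or beside longer transcripts also stood among the largest differences, SNORD144 (4.91), MIR6727 (4.87), MIR4639 (4.70), SNORD20 (3.70) and SNORD52 (3.55) higher and MIR23A (-4.34), MIR1909 (-4.05), MIR4517 (-3.36) and the copies MIR3648-1 and MIR3648-2 (-3.50 each, with identical values) lower. All but SNORD52 and MIR4517 were listed at 0 in 3 or more libraries, and reads of their host transcripts may be counted in them. These values depend on the added constant, and over the alternatives SNORD144 lay between 2.21 and 9.64, MIR6727 between 2.18 and 9.62 and SNORD20 between 1.44 and 8.26, the last passing in 9 of 18. MIR3648-1 and MIR3648-2 reached the level tested in only 15 of 19 alternatives. Genes reaching it only in the MOLM13 knockdown libraries were tested because they are high there. The filter may thus have fixed the direction of these MIR3648 copies.

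The endoplasmic reticulum (ER) chaperones and the machinery of ER-associated degradation were higher in NOMO1. These proteins fold secreted proteins or pull misfolded ones back to the cytosol for destruction, and their genes are switched on together by the unfolded protein response through ATF6 and XBP1. Of 30 members tested, 15 were higher under both scalings and 0 lower, against 18.5% and 4.87% of all genes, and in TPM alone 26 were higher. The median difference of the list was 1.01 in TPM and 0.51 after scaling, beside 0.42 and -0.01 for all genes. In TPM 23 members rose and 0 fell in NOMO1 and 9 rose and 9 fell in MOLM13, and after scaling these counts were 19 and 0, then 16 and 7. Of all genes tested, 28.6% rose and 15% fell in NOMO1 in TPM, and 10.6% rose and 31.2% fell in MOLM13. The list, like the others below, was drawn up with earlier results of these data known.

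DNAJB9, the ER co-chaperone ERdj4 (chr7:108569568-108574850, plus strand), stood at 12 and 12.8 TPM in NOMO1 shNS libraries and at 139 and 143 TPM after knockdown. In MOLM13 it stood at 8.19 and 7.64 TPM with shNS and at 11.1 and 7.85 TPM after knockdown. The rise was seen in both NOMO1 libraries and the MOLM13 groups overlapped, and the difference was 3.19 ± 0.22 (limma adjusted p = 0.0017).

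DNAJC3, the co-chaperone and kinase inhibitor p58IPK, went from 92.9 and 90.1 to 356 and 374 TPM in NOMO1 and from 38.4 and 38.6 to 35.2 and 27.1 TPM in MOLM13 (difference 2.29 ± 0.19, limma adjusted p = 0.0021). HERPUD1, which organises the degradation complex, went from 46.1 and 47 to 287 and 287 TPM in NOMO1 and from 58.3 and 56.2 to 121 and 57.3 TPM in MOLM13, where replicate 1 alone was raised (difference 2.07 ± 0.44, limma adjusted p = 0.017). The ubiquitin ligase SYVN1 rose in both lines, by 2.16 in NOMO1 and 0.48 in MOLM13. The channel proteins DERL1 (1.74) and DERL2 (1.61), the coat protein SEC24D (1.38) and the translocon gene SEC61B (1.07) were higher too. SEL1L, the partner of SYVN1, and the lectin chaperone CANX fell in MOLM13, by 0.94 and 1.05, and changed by 0.45 and 0.07 in NOMO1. CRELD2, EDEM1, EDEM2 and P4HB were 4 members that passed under neither scaling, with differences of 0.65, 0.58, 0.21 and 0.23.

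Promoters of this list are shown because some carry the ER stress response element (ERSE), the sequence that ATF6 binds with NF-Y. Its letters are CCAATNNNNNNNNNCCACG, searched on both strands in the 250 bases before the gene start in RefSeq promoters (GRCh38.p14). It was found in 6 of the 26 members with a promoter in the table (23.1%), in 0.131% of 10669 promoters of genes tested and in 0.0806% of all 27305 promoters. The 6 were HSPA5, HSP90B1, CALR, CANX, CRELD2 and XBP1, and 3 of them, HSPA5, CANX and XBP1, were higher under both scalings, as were 9 of the 20 members without a match. DNAJB9, DNAJC3 and SYVN1 had no such letters in this window. A match is a description and no evidence of binding. In HSPA5 (chr9:125241344-125241593, minus strand) and CANX (chr5:179698679-179698928, plus strand) the capitals mark the element.
HSPA5: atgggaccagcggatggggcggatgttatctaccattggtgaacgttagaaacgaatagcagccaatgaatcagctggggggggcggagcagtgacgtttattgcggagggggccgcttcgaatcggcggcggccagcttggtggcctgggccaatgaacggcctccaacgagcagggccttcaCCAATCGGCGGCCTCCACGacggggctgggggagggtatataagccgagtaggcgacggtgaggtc
CANX: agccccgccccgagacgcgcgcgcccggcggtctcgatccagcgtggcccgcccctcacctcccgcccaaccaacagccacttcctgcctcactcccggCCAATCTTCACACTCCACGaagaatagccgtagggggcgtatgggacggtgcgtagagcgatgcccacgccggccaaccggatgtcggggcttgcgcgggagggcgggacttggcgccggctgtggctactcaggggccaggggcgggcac
HSPA5, the main ER chaperone BiP, went from 432 and 433 to 1236 and 1344 TPM in NOMO1 and from 178 and 176 to 209 and 229 TPM in MOLM13, so that the knockdown libraries were above the controls in both lines and by more in NOMO1 (difference 1.27 ± 0.13, limma adjusted p = 0.0026; 0.76 and 0.042 after scaling).

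MYC, the transcription factor that drives growth and ribosome production, fell further in NOMO1. It stood at 267 and 258 TPM in NOMO1 shNS libraries and at 39.1 and 57.2 TPM after knockdown, and at 375 and 397 TPM in MOLM13 shNS libraries and at 206 and 271 TPM after knockdown. The knockdown libraries of the lines did not overlap, and the difference was -1.74 ± 0.29 (limma adjusted p = 0.0084) and -2.24 after scaling (adjusted p = 0.0080). Over the 19 alternative settings it lay between -2.62 and -1.47.

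Genes of the cytosolic ribosome were lower in NOMO1. Of 46 large-subunit genes tested 30 were lower under both scalings and 0 higher, and of 30 small-subunit genes 13 and 0, against 4.87% and 18.5% of all genes. The median differences were -0.67 and -0.71 in TPM and -1.19 and -1.22 after scaling. In NOMO1 21 and 17 members fell and 0 rose, while in MOLM13 15 and 8 rose and 4 and 3 fell. Of all genes, 15% fell and 28.6% rose in NOMO1, and 10.6% rose and 31.2% fell in MOLM13. The MOLM13 rise was mostly in shALKBH5 replicate 3. In TPM the median change in replicates 1 and 3 was 0.12 and 0.47 for the large subunit and -0.02 and 0.40 for the small. After scaling these medians were 0.22 and 0.95, then 0.08 and 0.88. Here and below, a fit without 1 library assumes that the lone library left in its group varies like the other groups. Leaving out either MOLM13 shALKBH5 library raised the counts lower under both scalings to 40 and 34 of the large subunit and to 29 and 22 of the small subunit, where replicate 1 or replicate 3 was left out. Leaving out any of the other 6 libraries lowered the counts in TPM to between 3 and 6 of the large subunit and to 2 or 3 of the small one.

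RPL36 went from 1744 and 1777 to 1054 and 1077 TPM in NOMO1 and from 3035 and 3185 to 4503 and 5550 TPM in MOLM13 (difference -1.41 ± 0.16, limma adjusted p = 0.0035). All NOMO1 libraries fell and all MOLM13 libraries rose against their controls. RPS19, whose loss causes Diamond-Blackfan anaemia, had a difference of -1.47 ± 0.21 and RPS15 of -1.25 ± 0.18 (limma adjusted p = 0.0055 each). RPS10 departed from the pattern, since it fell in both lines, by 2.38 in NOMO1 and 1.62 in MOLM13. Ribosomal protein genes have many processed copies in the genome, so the split of reads between copies is uncertain.

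A list of known MYC targets in ribosome assembly and growth moved both ways. Of 42 tested, 8 were lower under both scalings and 4 higher, against 4.87% and 18.5% of all genes. The lower ones were led by the rRNA methyltransferase FBL (-1.13), the nucleolar TCOF1 (-1.07) and the assembly factor BOP1 (-0.80), and the higher ones were the DNA glycosylase UNG (2.31), the snoRNP protein GAR1 (1.54), RRP12 (1.31) and the helicase DDX18 (1.04). The median difference was 0.06 in TPM and -0.44 after scaling, beside 0.42 and -0.01 for all genes. With median-of-ratios scaling alone 4 members were higher and 19 lower, against 18.5% and 17.1% of all genes. Of 78 mitochondrial ribosomal protein genes 5 were higher and 5 lower under both scalings, against 18.5% and 4.87% of all genes.

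The programme that MLL fusions sustain, the HOXA genes with their partners and targets, was higher in NOMO1. Of 23 members tested 15 were higher under both scalings and 1 lower, against 18.5% and 4.87% of all genes, with a median difference of 1.23 in TPM and 0.86 after scaling. In MOLM13 20 members fell, against 31.2% of all genes, and 0 rose, and in NOMO1 6 fell and 6 rose. With either MOLM13 shALKBH5 library left out, 17 members were higher under both scalings and 1 lower.

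HOXA10, a homeobox factor of this cluster, stood at 177 and 181 TPM in NOMO1 shNS libraries and at 188 and 178 TPM after knockdown, and fell in MOLM13 from 46.1 and 46.6 to 16.8 and 12.6 TPM. The NOMO1 groups overlapped and the MOLM13 groups did not (difference 1.63 ± 0.19, limma adjusted p = 0.0036). MEIS1, the HOX cofactor of the TALE family, was at 57.8 and 58.6 TPM in NOMO1 shNS libraries, 47.1 and 50.5 TPM after knockdown, 13.6 and 13.3 TPM in MOLM13 shNS libraries and 4.09 and 3.74 TPM after knockdown (difference 1.30 ± 0.13, limma adjusted p = 0.0026). The cofactor PBX3 (1.98), the demethylase-family gene JMJD1C (1.71), HOXA9 (1.24) and the myeloid leukaemia factor MEF2C (2.19) were higher as well. HOXA5 rose by 0.86 in NOMO1 and fell by 0.87 in MOLM13 (difference 1.73).

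Not every member followed. ZNF521 and the receptor tyrosine kinase FLT3 were under 1 TPM in NOMO1, so that their differences, 2.15 and 2.02, are the falls in MOLM13. BCL2 fell by 2.29 in NOMO1 and 2.22 in MOLM13, and the difference was -0.07 ± 0.23 (95% interval -0.62 to 0.48, limma adjusted p = 0.84). IGF2BP2, an m6A reader, was the lower member. It fell in NOMO1 from 30.4 and 34.1 to 6.04 and 6.43 TPM and in MOLM13 from 80.4 and 78.1 to 44.3 and 45.5 TPM (difference -1.39 ± 0.14, limma adjusted p = 0.0026).

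**Figure D2:**
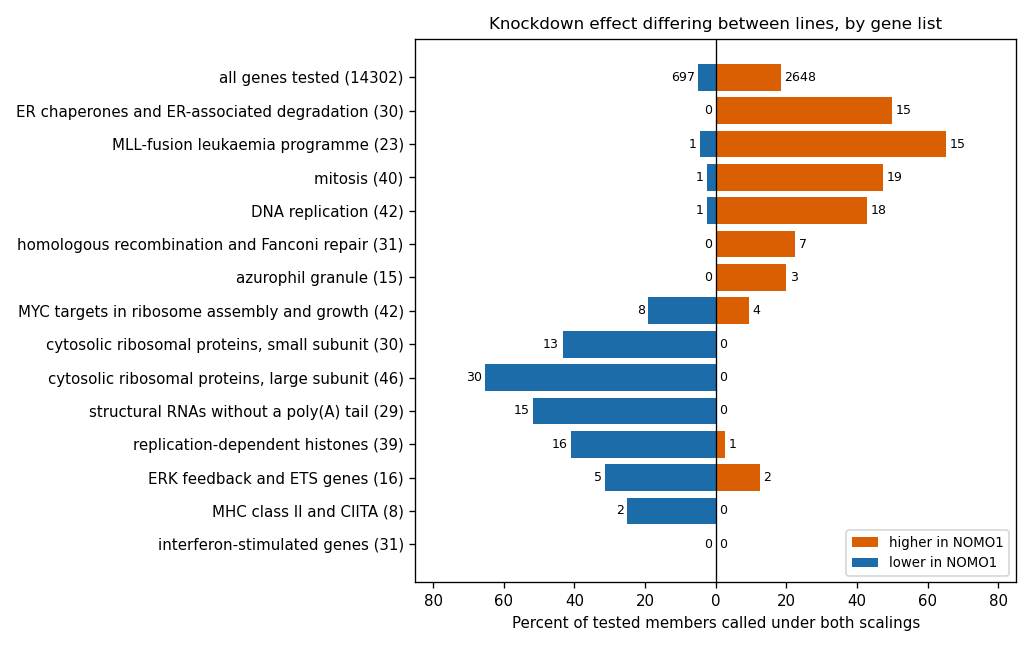
Share of the tested members of each gene list (number tested in brackets) whose knockdown effect was higher (right) or lower (left) in NOMO1 under both scalings, with the number of genes at each bar and all 14302 genes as the top row. The ER, MLL-fusion, mitosis and DNA replication lists reach to the right, and the ribosomal protein, structural RNA and histone lists to the left.

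Genes of cell division fell in both lines, and a large share of them fell further in MOLM13. Of 40 mitosis genes, which build the spindle and separate chromosomes, 39 fell in NOMO1 and 40 in MOLM13, and of 42 DNA replication genes 37 and 40, against 15% and 31.2% of all genes. The difference was higher in NOMO1 under both scalings for 19 mitosis genes and 18 replication genes, against 18.5% of all genes, and lower for 1 of each, ECT2 (-0.73) and POLD2 (-0.91). The median differences were 1.09 and 0.85 in TPM and 0.81 and 0.42 after scaling. Many MOLM13 knockdown values lay near the added 1 TPM, where log2(TPM + 1) understates a fall. With 5 TPM added in place of 1, the mitosis genes higher in NOMO1 in TPM went from 26 to 12.

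CDK1, the kinase that starts mitosis (chr10:60778331-60794852, plus strand), went from 189 and 188 to 44 and 54.2 TPM in NOMO1 and from 90.8 and 88.8 to 3.78 and 0.28 TPM in MOLM13. Knockdown libraries were below controls in both lines, and the MOLM13 knockdown libraries were the lowest of all and far from each other (difference 3.27 ± 0.78, limma adjusted p = 0.023). MKI67, the proliferation marker Ki-67, went from 323 and 322 to 51.5 and 74.1 TPM in NOMO1 and from 115 and 116 to 3.36 and 1.23 TPM in MOLM13 (difference 2.86 ± 0.45, limma adjusted p = 0.0073). The kinase TTK (2.16), the kinetochore gene NDC80 (2.12) and the ubiquitin-conjugating enzyme UBE2C (1.82) showed the same order. TACC3, a spindle protein and known ALKBH5 target in leukaemia, fell by 1.10 in NOMO1 and 1.36 in MOLM13, with a difference of 0.26 ± 0.14 (limma adjusted p = 0.18).

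Among replication genes, CDC6, which loads the replicative helicase, differed most clearly. It went from 66.3 and 66.5 to 44.9 and 52.9 TPM in NOMO1 and from 31.2 and 30.5 to 2.77 and 2.2 TPM in MOLM13. The NOMO1 fall was small beside that in MOLM13, and the difference was 2.76 ± 0.18 (limma adjusted p = 0.0014). RRM2, the regulated subunit of ribonucleotide reductase, stood at 559 and 578 TPM in NOMO1 shNS libraries, 296 and 372 TPM after knockdown, 78.8 and 77 TPM in MOLM13 shNS libraries and 5.33 and 1.73 TPM after knockdown (difference 3.47 ± 0.51, limma adjusted p = 0.0062). Thymidylate synthase TYMS (2.57), the helicase-complex gene GINS2 (1.67) and the chromatin assembly gene CHAF1B (1.59) were higher too. Of 31 genes of homologous recombination and the Fanconi pathway 7 were higher and 0 lower, near the 18.5% of all genes, among them the exonuclease gene EXO1 (2.02).

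Promoters of mitotic genes often hold the cell cycle homology region (CHR), bound by the DREAM and MuvB complexes, which silence these genes when cells leave the cycle. Its letters TTTGAA, on either strand of the same 250 bases, were found in 18 of 34 mitosis promoters (52.9%), in 1 of 35 replication promoters (2.86%), in 8.73% of promoters of genes tested and in 13.6% of all promoters. A difference under both scalings was held by 10 of the 18 mitosis genes with the letters, counting ECT2 in the other direction, and by 7 of the 16 without them. In CDK1 (chr10:60778081-60778330, plus strand) and MKI67 (chr10:128126424-128126673, minus strand), shown because they had the largest differences in the list, the capitals mark the match.
CDK1: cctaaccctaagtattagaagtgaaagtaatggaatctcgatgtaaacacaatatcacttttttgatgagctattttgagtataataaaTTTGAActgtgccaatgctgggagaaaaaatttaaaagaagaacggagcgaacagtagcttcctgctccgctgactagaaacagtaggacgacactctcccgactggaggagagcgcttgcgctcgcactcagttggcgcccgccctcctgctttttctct
MKI67: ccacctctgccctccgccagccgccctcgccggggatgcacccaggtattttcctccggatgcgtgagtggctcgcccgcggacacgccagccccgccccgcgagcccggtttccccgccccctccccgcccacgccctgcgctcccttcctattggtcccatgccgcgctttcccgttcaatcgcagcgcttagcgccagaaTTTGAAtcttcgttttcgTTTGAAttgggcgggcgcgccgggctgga
MKI67 held 2 matches close to the gene start and CDK1 a single one farther away.

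Of 15 genes of the azurophil granule, the store of myeloid enzymes, 12 rose and 1 fell in NOMO1 and 8 rose and 4 fell in MOLM13, where 28.6% and 10.6% of all genes rose. The difference was higher under both scalings for 3 and lower for 0, a share near the 18.5% of all genes. Without MOLM13 shALKBH5 replicate 1 these counts were 6 and 1, and without replicate 3 they were 8 and 0. MPO, myeloperoxidase (chr17:58269856-58280935, minus strand), was at most at 0.48 TPM in NOMO1 and fell in MOLM13 from 384 and 456 to 19.3 and 16.4 TPM (difference 4.75 ± 0.22, limma adjusted p = 0.0012). CTSG, cathepsin G, rose in NOMO1 from 1765 and 1789 to 5525 and 6170 TPM and fell in MOLM13 from 516 and 529 to 273 and 345 TPM (difference 2.48 ± 0.18, limma adjusted p = 0.0018). In TPM CTSG was thus abundant in both lines and moved in opposite directions, and so did the serine protease PRSS57 (2.22). After scaling 2 of the 15 genes fell in MOLM13, beside 4 in TPM. ELANE, neutrophil elastase, rose in both, by 1.47 and 1.10, with a difference of 0.36 ± 0.16 (limma adjusted p = 0.12). The calgranulin gene S100A8 (2.25) and the complement gene C1QA (2.20) were higher, and the transcription factor CEBPB (-1.17) and the chemokine receptor CCR2 (-1.56) lower. In these bulk libraries fewer cells of a kind and less RNA per cell cannot be told apart.

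**Figure D3:**
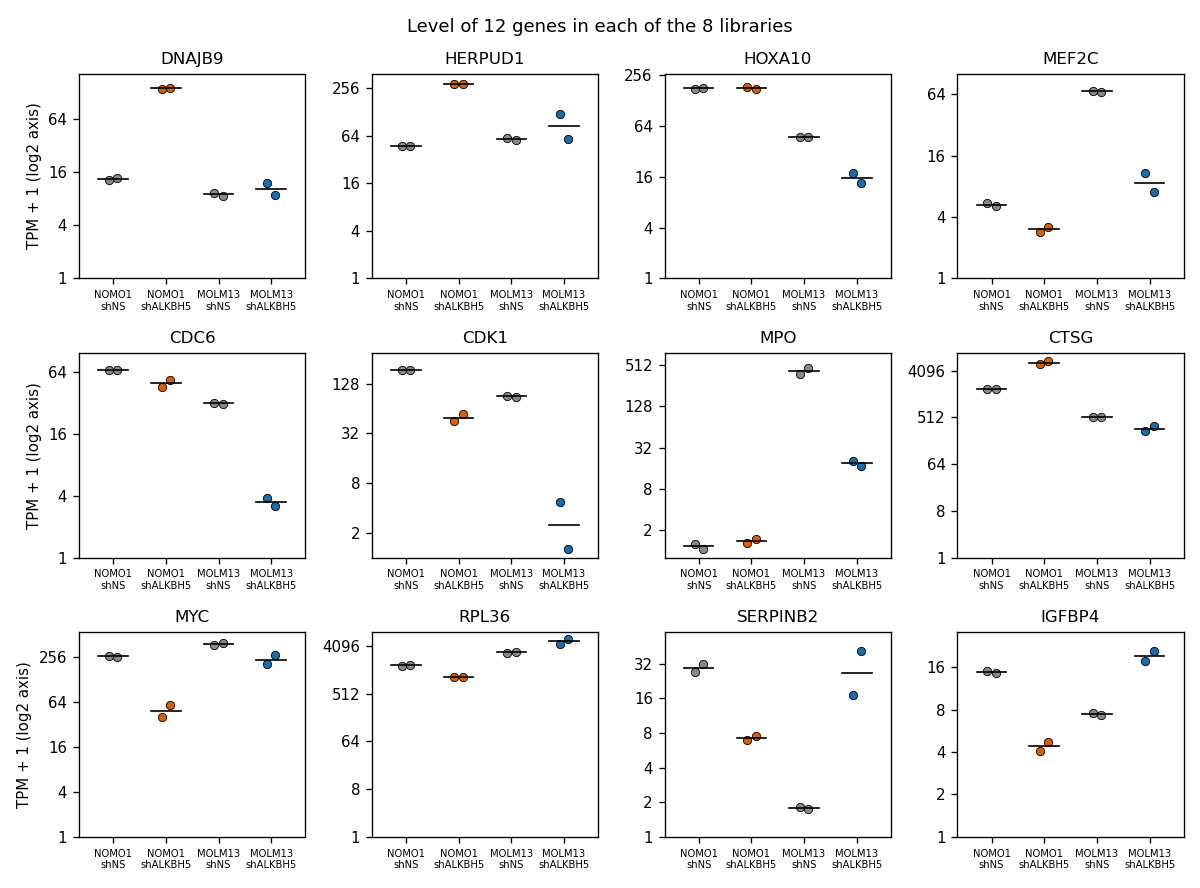
TPM + 1 on a log2 axis for 12 genes in each of the 8 libraries (points), with the mean of the log2 values of each group of 2 (bars). DNAJB9 and HERPUD1 rise in NOMO1, HOXA10 falls in MOLM13 alone, CDC6 and CDK1 fall further in MOLM13, MYC falls further in NOMO1, and CTSG, RPL36, SERPINB2 and IGFBP4 move in opposite directions.

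RNAs without a poly(A) tail were raised in the MOLM13 knockdown libraries, although the libraries were made from poly(A)-selected RNA. Of 29 structural RNAs tested, such as ribosomal, spliceosomal and signal recognition RNAs, 15 were lower in NOMO1 under both scalings and 0 higher. Of all genes 4.87% were lower and 18.5% higher, and the median difference of the list was -1.84. In MOLM13 22 rose and 0 fell, against 10.6% and 31.2% of all genes, and in NOMO1 1 rose and 2 fell. A member reaching 1 TPM only in the 2 MOLM13 knockdown libraries, such as RNA5-8S5, was tested because it is high there. Its direction was thus fixed by the filter. With either of these libraries left out, 25 members reached the level tested. The 40 structural RNAs in the table together made up 2.31% and 1.75% of TPM in MOLM13 shNS libraries and 4.06% and 7.89% after knockdown, and 6.13% and 4.76% in NOMO1 shNS libraries and 5.13% and 2.07% after knockdown. The effect of this share on the TPM of other genes was not tested.

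RN7SK, the RNA that holds the elongation factor P-TEFb inactive, stood at 57.1 and 41.7 TPM in NOMO1 shNS libraries, 123 and 68.2 TPM after knockdown, 74.3 and 61 TPM in MOLM13 shNS libraries and 1284 and 2747 TPM after knockdown (difference -3.89 ± 0.60, limma adjusted p = 0.0069). Both MOLM13 knockdown libraries stood far above the other 6. RNA5-8S5, a 5.8S ribosomal RNA, was listed at 0 in the other 6 libraries and at 1621 and 4046 TPM there. The mitochondrial and ribosomal processing RNA RMRP (-4.22), the ribosomal precursor RNA45S5 (-3.90) and the spliceosomal RNU4-1 (-5.10, listed at 0 in 4 libraries) were lower too, while RNA18S5 (-1.72 ± 0.67, limma adjusted p = 0.092) did not pass. These RNAs come from multi-copy genes.

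Replication-dependent histone genes, whose transcripts end in a stem-loop and not a poly(A) tail, went the same way in part. Of 39 tested 16 were lower under both scalings and 1 higher, against 4.87% and 18.5% of all genes. The limit set by the filter holds here too, and 37 members reached the level tested with either MOLM13 knockdown library left out. HIST1H4C stood at 3.01 and 4.82 TPM in NOMO1 shNS libraries, 1.93 and 1.92 TPM after knockdown, 2.58 and 2.47 TPM in MOLM13 shNS libraries and 15.7 and 23 TPM after knockdown (difference -3.23 ± 0.33, limma adjusted p = 0.0026). Only the MOLM13 knockdown libraries exceeded 5 TPM. HIST1H2AM (-2.84) and the linker histone gene HIST1H1E (-2.46) were lower as well. HIST2H2BE, which can also give polyadenylated transcripts, was the higher member, rising in NOMO1 from 2.04 and 1.76 to 26 and 23.9 TPM. Of all 39, 20 rose in MOLM13 and 0 fell, against 10.6% and 31.2% of all genes and beside 40 mitosis genes that fell there.

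The MOLM13 knockdown libraries differed from each other more than any other pair, with a standard deviation of their gene-by-gene difference of 0.526 against 0.133 to 0.184 in the other groups, and some gene groups rested on 1 of them. The 35 interferon-stimulated genes in the table, of which 31 were tested, made up 0.339% of TPM in MOLM13 shALKBH5 replicate 1 and 0.0403% in replicate 3, beside 0.0508% and 0.0487% with shNS. In NOMO1 the share was 0.0834% and 0.087% with shNS and 0.107% and 0.111% with shALKBH5. IFIT1, an antiviral RNA-binding protein, stood at 70.7 and 0.35 TPM in the MOLM13 knockdown libraries and between 1.43 and 5.63 TPM in the other 6. By limma 0 of the 31 members differed in TPM and 1 had an unadjusted p under 0.05, and after scaling 2 were lower.

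Without MOLM13 shALKBH5 replicate 1, 14 interferon members were higher in NOMO1 under both scalings and 2 lower, and without replicate 3, 0 were higher and 30 lower. The direction of this group was thus set by which MOLM13 library was used. In these fits the MOLM13 knockdown group is 1 library, assumed to vary like the other groups, so the counts are read for direction only. The NF-kB and inflammatory genes gave 8 higher and 1 lower without replicate 1 and 0 and 17 without replicate 3, with CXCL8, interleukin 8, at 405 and 1.71 TPM in the MOLM13 knockdown libraries. Of 20 immediate-early genes 12 were higher and 1 lower without replicate 1 and 5 and 9 without replicate 3. The leading lists kept their direction in both cases. The ER list had 17 higher and 0 lower without replicate 1 and 25 and 0 without replicate 3, mitosis had 24 and 1 in both cases, DNA replication 22 and 1 in both, structural RNAs 0 and 13, then 0 and 10, and histones 1 and 18, then 5 and 12. Over all genes tested the counts were 4364 higher and 1205 lower, then 3878 and 1944.

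**Figure D4:**
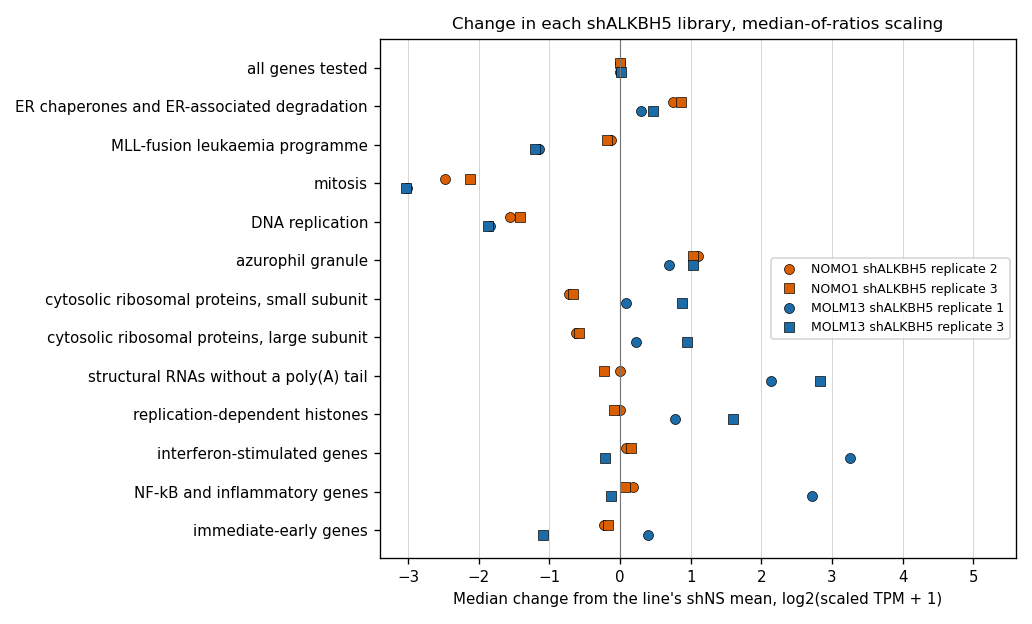
Median change over each gene list in each shALKBH5 library from the mean of its line's shNS libraries, in log2(TPM + 1) after median-of-ratios scaling, NOMO1 in orange and MOLM13 in blue. The 2 MOLM13 libraries lie together for mitosis and the MLL-fusion programme and apart for NF-kB genes (2.71 and -0.13) and for those induced by interferon (3.26 and -0.21). They also lie apart for ribosomal proteins of the small (0.08 and 0.88) and large subunit (0.22 and 0.95).

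Feedback genes of the ERK pathway, which report mitogen signalling, moved both ways, with a larger share lower than among all genes. Of 16 tested 5 were lower in NOMO1 under both scalings and 2 higher, against 4.87% and 18.5% of all genes. Without MOLM13 shALKBH5 replicate 1 the counts were 6 and 7, and without replicate 3 they were 11 and 2. ETV5, an ETS factor induced by ERK, went from 85.7 and 82.2 to 1.67 and 4.31 TPM in NOMO1 and from 22.3 and 22.9 to 5.54 and 2.1 TPM in MOLM13 (difference -2.10 ± 0.60, limma adjusted p = 0.038). It fell in both lines to a few TPM, from a higher start in NOMO1. ETV4 (-1.20), SPRED2 (-1.39) and the phosphatase DUSP4 (-1.06) were lower, and SPRY4 (0.65) higher. DUSP6, the ERK phosphatase, fell by 2.30 and 2.27, and its difference of -0.03 had a standard error of 0.66.

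CIITA, the master regulator of MHC class II genes, rose in both lines and by more in MOLM13, from 6.37 and 6.76 to 12.3 and 13.1 TPM in NOMO1 and from 1.11 and 1.15 to 17.1 and 9.19 TPM in MOLM13 (difference -1.81 ± 0.36, limma adjusted p = 0.014). HLA-DRB5, a class II gene with near-identical copies, went the same way (-1.86). The other 6 class II genes tested did not pass under both scalings, among them CD74 (-0.58). After median-of-ratios scaling alone 5 of the 8 were lower and 0 higher, against 17.1% and 18.5% of all genes.

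Of 19 members of the m6A machinery 2 were higher under both scalings, the reader YTHDF3 (1.22) and the writer subunit KIAA1429 (0.89), and 1 lower, against 23.4% of all genes in either direction. YTHDF3 rose in NOMO1 from 56.1 and 52.6 to 123 and 112 TPM and was at 47.7 and 44 TPM in MOLM13 shNS libraries and at 53.4 and 33.1 TPM after knockdown. The MOLM13 groups overlapped (difference 1.22 ± 0.30, limma adjusted p = 0.026). METTL3 had a difference of 0.04 ± 0.17 (limma adjusted p = 0.87), METTL14 of 0.80 ± 0.26 (0.058) and YTHDF2 of 0.51 ± 0.21 (0.10). FTO, the other demethylase, passed in TPM at 0.75 ± 0.22 (limma adjusted p = 0.045) and not after scaling (0.27, adjusted p = 0.088).

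KDM4C, the histone H3 lysine 9 demethylase, rose in NOMO1 from 13.7 and 12.4 to 32.3 and 32 TPM and stayed between 12.6 and 15.4 TPM in MOLM13 (difference 1.26 ± 0.17, limma adjusted p = 0.0051). The MOLM13 groups overlapped. AXL was at most at 0.09 TPM in NOMO1, and its MOLM13 knockdown libraries stood at 9.37 and 1.92 TPM around controls of 4.39 and 3.95 TPM (difference 0.01 ± 0.74). The cell cycle inhibitor CDKN1A, a p53 target, rose by 1.78 in NOMO1 and 0.75 in MOLM13, with a difference of 1.03 ± 0.34 (limma adjusted p = 0.059) and 0.52 after scaling (adjusted p = 0.44). Of 26 p53 targets 2 were higher, ZMAT3 (1.32) and RRM2B (1.06), and 3 lower, DDB2 (-1.59), FDXR (-1.27) and BBC3 (-0.82). The shares of all genes were 18.5% higher and 4.87% lower. After median-of-ratios scaling alone 2 p53 targets were higher and 10 lower, against 18.5% and 17.1% of all genes. DDB2, a DNA damage sensor, fell in NOMO1 from 40.6 and 44.4 to 11.7 and 13.5 TPM and lay between 42.9 and 50.8 TPM in MOLM13.

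Among genes that hold off apoptosis, BCL2L1 (BCL-xL) rose in NOMO1 from 55.1 and 54.3 to 95 and 94.5 TPM. In MOLM13 it went from 12.1 and 13.7 to 10.1 and 9.3 TPM (difference 1.15 ± 0.14, limma adjusted p = 0.0039). The MOLM13 groups overlap once divided by their median-of-ratios factors, so that this fall depends on the scaling. BIRC2, an inhibitor of apoptosis protein, was also higher (1.32), and the other 7 of 9 members tested were not different under both scalings. Of 23 pro-apoptotic genes 3 were higher, among them APAF1 (1.30) and CYCS (0.96), and 2 lower, the death receptor TNFRSF10A (-0.90) and BBC3. Among all genes 18.5% were higher and 4.87% lower. Metabolic genes moved both ways. The kinase PDK1 (1.78) and the mitophagy receptor BNIP3L (1.78) were higher and the hexokinase HK1 (-1.15), the lysosomal glucosidase GAA (-1.23) and the sterol regulator SREBF2 (-0.70) lower.

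The remaining lists are given by their counts under both scalings, to be read against the background of 18.5% higher and 4.87% lower. Of 40 translation factors 5 were higher and 0 lower, of 20 cytosolic aminoacyl-tRNA synthetases 3 and 0, of 35 proteasome genes 4 and 1, of 31 SR proteins and hnRNPs 4 and 0, and of 26 heat shock chaperones 3 and 1. Of 48 lysosomal genes 5 were higher and 3 lower, of 57 nuclear-encoded respiratory chain genes 2 and 6, of 25 cholesterol synthesis genes 1 and 3, of 29 glycolysis and hypoxia genes 4 and 2, of 25 ATF4 response genes 4 and 1, and of 20 snoRNA host genes 1 and 2. After median-of-ratios scaling alone 30 respiratory chain genes, 15 lysosomal genes and 36 mitochondrial ribosomal protein genes were lower, against 17.1% of all genes. Without MOLM13 shALKBH5 replicate 3 the respiratory chain list had 3 higher and 21 lower under both scalings and the lysosomal list 8 and 19. Of 29 monocyte and macrophage genes 2 were higher and 2 lower, but 12 and 4 without MOLM13 shALKBH5 replicate 1 and 5 and 12 without replicate 3. Of 15 myeloid transcription factors 1 was higher and 1 lower, and of 9 MHC class I genes none passed limma's test under both scalings, 1 being higher in TPM and 4 lower after scaling. Of markers of other cell types, 3 of 16 erythroid, 4 of 12 megakaryocyte, 4 of 15 lymphoid and 2 of 13 epithelial and fibroblast genes listed reached the level tested. The erythroid list, mostly the transferrin receptor TFRC, made up between 0.00929% and 0.0444% of TPM.

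Some genes moved in the same direction with like effects in TPM. They were picked because the 95% interval of their TPM difference lay within -1 to 1. These intervals therefore cannot test how alike the effects are. LIMA1, an actin-bundling protein, rose from 16.6 and 16.7 to 78.4 and 95.9 TPM in NOMO1 and from 7.21 and 6.41 to 43 and 33.3 TPM in MOLM13. All knockdown libraries lay above their controls, and the effects of 2.31 and 2.32 differed by -0.00 ± 0.23 (95% interval -0.55 to 0.54) in TPM and by -0.53 after scaling (limma adjusted p = 0.031). HYAL3 (0.60), TREM2 (-0.16), PDE4DIP (-0.46) and KCNMB1 (-0.32) also rose in both lines. The TPM difference of HYAL3 passed the threshold (limma adjusted p = 0.020), and those of PDE4DIP and KCNMB1 passed after scaling, at -0.98 and -0.84. UHRF1, which maintains DNA methylation at replication, fell from 99.2 and 97.3 to 14.6 and 19.6 TPM in NOMO1 and from 92.9 and 96.4 to 19.4 and 13.1 TPM in MOLM13. Its knockdown libraries overlapped between the lines (difference 0.03 ± 0.29, 95% interval -0.68 to 0.73, limma adjusted p = 0.95). Over the alternatives the UHRF1 difference lay between -0.51 and 0.31. NUCKS1 (-0.27), DEPDC1B (0.27), TROAP (0.09) and APOBEC3B (0.03) fell in both lines, and with 5 TPM added in place of 1 the differences of APOBEC3B and TROAP became -1.24 and -0.79.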

How the data were processed

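Poly(A) RNA from 8 libraries of NOMO1 and MOLM13 cells was sequenced by the authors, who deposited 1 table of TPM values per gene symbol. STAR, RSEM and GRCh38 are named in the submitters' processing notes; which annotation was used, and whether counting used strand, is not given in these sources. TPM columns share 1 fixed total, so read depth is unknown. Values were analysed as log2(TPM + 1) for genes at 1 TPM or more in at least 2 columns, with limma 3.58.1 in R 4.3.3: 1 coefficient per group, an intensity trend and Benjamini-Hochberg adjustment over all genes tested, at 0.05. The fit had 4 residual degrees of freedom and a prior of 2.29. The same fit was made after dividing each library by its median-of-ratios factor over 13999 genes. The fit in TPM was also run on simulated data that gave all groups the same spread for a gene. That run could not test the fit under the larger spread of the MOLM13 shALKBH5 libraries. Replicates were taken from the labels.

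The genes and lists were chosen with earlier results of these data known. Genes were named by a rule: 11 genes of the m6A and leukaemia literature, the 12 largest differences each way among genes reaching 5 TPM with no overlap between lines, the 8 strongest opposite patterns each way, 3 per list by p, and 5 like responses each way. Further list members were named after their values were seen. Of 19 alternatives, 2 were added after seeing the data. Some list members are not reported here.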

Additional observations from a re-analysis of the deposited data

Results flagged for a closer look

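The knockdown effect differed between the lines, by limma's test of the difference under both scalings, for 3345 genes, and the values here are log2 differences, NOMO1 minus MOLM13, in TPM. By list, 15 ER genes, 15 genes of the MLL-fusion programme, 19 mitosis genes and 18 DNA replication genes were higher in NOMO1, and 13 small-subunit and 30 large-subunit ribosomal protein genes, 15 structural RNAs and 16 histone genes were lower. Of all genes tested, 18.5% were higher and 4.87% lower. Structural RNAs and histone genes reaching 1 TPM only in the MOLM13 knockdown libraries were tested because they are high there. For these the filter fixed the direction.

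Among single genes, MPO (4.75), KDM4C (1.26), TMEM45A (4.41), MFAP4 (4.07), SELM (3.60), VAT1L (3.48), RRM2 (3.47), CDK1 (3.27), IKBIP (3.15), MTSS1L (2.96), HOXC4 (2.86), CBLB (2.84), DHRS9 (2.80) and LOC100289473 (2.49) were higher in NOMO1. So were the small RNA genes SNORD144 (4.91), MIR6727 (4.87), MIR4639 (4.70), SNORD20 (3.70) and SNORD52 (3.55), whose sizes depend on the added 1 TPM. MYC (-1.74), SERPINB2 (-5.90), CCL2 (-4.65), EEF1E1 (-3.84), IGFBP4 (-3.13), PRR7 (-1.86) and ATP2A1-AS1 (-2.56) were lower. RNA5-8S5 (-11.32, listed at 0 in 6 libraries, so that this fitted value depends on the added 1 TPM), RNU4-1 (-5.10), RMRP (-4.22), RNA45S5 (-3.90), RN7SK (-3.89), HIST1H4C (-3.23), HIST1H2AM (-2.84), MIR23A (-4.34), MIR1909 (-4.05), MIR4517 (-3.36), MIR3648-1 (-3.50) and MIR3648-2 (-3.50) were lower too. The filter fixed the direction of RNA5-8S5 and may have fixed that of MIR3648-1 and MIR3648-2.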

How the results depend on the processing

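The count of 4946 differing genes ranged from 1586 to 9638 when 1 library was left out, the lone library being assumed to vary like the other groups; 9638 and 7819 were reached without MOLM13 shALKBH5 replicates 1 and 3, and with median-of-ratios scaling as well, 8415 and 7487. Of these calls 85.8% were higher in NOMO1, against 52.0% with median-of-ratios and 55.8% with quantile scaling. The knockdown counts went from 6242 in NOMO1 to 3244 to 9755 with a library left out, 9712 with array weights and 9545 and 9555 with both changes, and from 5972 in MOLM13 to 2631 to 9389, 2811 with array weights and 9385 without replicate 1 after scaling. Leaving out a library gave 14 to 29 higher ER genes, 10 to 20 MLL-programme genes, 10 to 37 mitosis and 9 to 34 replication genes, and 2 to 29 and 3 to 40 lower small- and large-subunit genes, 9 to 13 structural RNAs and 7 to 18 histones. The ER count was 15 with median-of-ratios scaling and 17 without MOLM13 shALKBH5 replicate 1 as well. Mitosis gave 12 with 5 TPM added and 14 with array weights. The small subunit gave 6 and the large 14 with no filter on low values, and 30 and 46 after scaling without replicate 1, and the small subunit 29 without replicate 3. Structural RNAs gave 9 and histones 7 with array weights, and histones 5 at a minimum of 5 TPM.

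No label ties equal replicate numbers to a shared culture or day. The NOMO1 groups share only number 3 (correlation of deviations 0.00467) and the MOLM13 groups numbers 1 and 3 (0.131), too few to take the samples as paired. With the number as a replicate block, which leaves 2 residual degrees of freedom, limma gave 0 differing genes (5250 at an unadjusted p under 0.05), 0 in each list above, 1978 genes in NOMO1 and 3971 in MOLM13.

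Signs turned for ALKBH5 (-0.33 with median-of-ratios scaling, -0.33 and -0.30 without replicate 1 or 3 of MOLM13 shALKBH5 as well), AXL (0.92 without replicate 1, -0.91 without replicate 3, -1.04 after scaling), BAD (-0.01 with median-of-ratios, -0.03 with quantile scaling), and, with 5 TPM added, APOBEC3B (-1.24) and TROAP (-0.79). After scaling without replicate 1, BAD (-0.13), GFI1 (-0.05), HYAL3 (-0.04), METTL3 (-0.79), MYB (-0.02), PSMB5 (-0.01), SARS (-0.02) and TACC3 (-0.32) turned too. Without passing in that setting, CDKN1A (-0.05), YTHDF2 (-0.01), DEPDC1B (-0.32), UHRF1 (-0.51), LIMA1 (0.22), KCNMB1 (0.29), TREM2 (0.14) and NUCKS1 (0.02) also reached values of the other sign. The cause was not tested. Depth is unknown, and 2 libraries a group limit precision.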
